A study of Mus musculus with 8 samples.

Results

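To examine genes of epithelial adhesion and of the epithelial-mesenchymal transition (EMT) in *Setd2*-mutant lung tumors, 10 genes of the 48709 in the count table were followed in 8 mouse lung tumors. They were taken by symbol, through the Ensembl identifiers of the table, and all 10 were found. They comprise the epithelial adhesion genes *Cdh1* and *Epcam*, the mesenchymal genes *Cdh2*, *Vim* and *Fn1*, and the transcription factors *Zeb1*, *Zeb2*, *Snai1*, *Snai2* and *Twist1*. Of these, 9 passed the filter on low counts and entered the test, and *Twist1* did not. The labels call the samples lung adenocarcinoma, while the study describes the *K-Setd2KO* tumors as adenomas of low grade. In the labels 4 tumors are given as *K-Ctrl* and 4 as *K-Setd2KO*. All 8 came from the Cre-dependent *K* mouse model on a mixed B6J/129S4vJae background with intact *p53*, in which a lentiviral vector placed in the airway carried Cre, Cas9 and 1 guide RNA. Tumors arose from the infected cells. The guide targeted GFP in *K-Ctrl* and *Setd2*, whose protein writes trimethylation on histone H3 lysine-36, in *K-Setd2KO*, so the controls share the *K* model, Cre and Cas9. Ages and sexes were not given in the labels. The tumors were described in the study as matched by histology, and whole frozen tumors were used without sorting, although the extraction text of the labels speaks of cell lines. Nothing in the labels says that the tumors of a group came from separate mice, so p-values measure the spread between these samples.

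In EMT, epithelial cells lose cell-cell junctions built on E-cadherin and gain motility, vimentin filaments and a fibronectin-rich matrix. The transcription factors of the ZEB, SNAIL and TWIST families drive it by binding E-box motifs, and E-cadherin is their classical repressed target. In whole lung tissue *Vim*, *Zeb1*, *Zeb2* and *Fn1* are also used by cells that were never epithelial, among them fibroblasts, endothelial cells and leukocytes.

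Total counts ranged from 5806599 to 21290402 per tumor and overlapped between the groups. *Sftpc*, a surfactant gene of alveolar type 2 cells, reached 25164 CPM (read counts put on 1 library-size scale) in *K-Ctrl* against 25119 CPM in *K-Setd2KO*. Of 11 markers of these cells, 2 were higher and 1 lower in *K-Setd2KO*. *Sftpb* rose from 5590 to 11860 CPM (adjusted p = 0.0122 by edgeR) and *Lpcat1* from 1234 to 2548 CPM (adjusted p = 0.0217 by edgeR). *Napsa* fell from 341.3 to 112.5 CPM (adjusted p = 0.034 by edgeR). *Setd2* mRNA was 140 CPM in *K-Ctrl* against 136 CPM in *K-Setd2KO* (log2 fold change -0.046 ± 0.115, where the error of a log2 fold change is throughout its standard error, adjusted p = 0.824 by edgeR), a level that does not read a small edit in the gene and so does not check the labels. By *Xist* and Y-linked genes, 1 *K-Ctrl* and 3 *K-Setd2KO* tumors were female, so sex and genotype partly coincide.

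Of the 9 members tested, *Epcam* rose in *K-Setd2KO* tumors and *Vim*, *Zeb1*, *Zeb2* and *Snai2* fell, while *Cdh1*, *Cdh2*, *Fn1* and *Snai1* did not pass the test. That is 1 member higher and 4 lower at an adjusted p under 0.05 in edgeR's quasi-likelihood test, adjusted over all 14929 genes tested. Over all genes tested, 12.7% were called, 4.97% higher and 7.74% lower. The values of the 2 groups did not overlap for 5 members, the same 5 that were called, against 20.3% of all genes tested. The median log2 fold change was -0.58 over the 9 members and 0.029 over all genes tested. In bulk tumors, fewer cells of a type and less RNA per cell cannot be told apart.

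**Figure D1:**
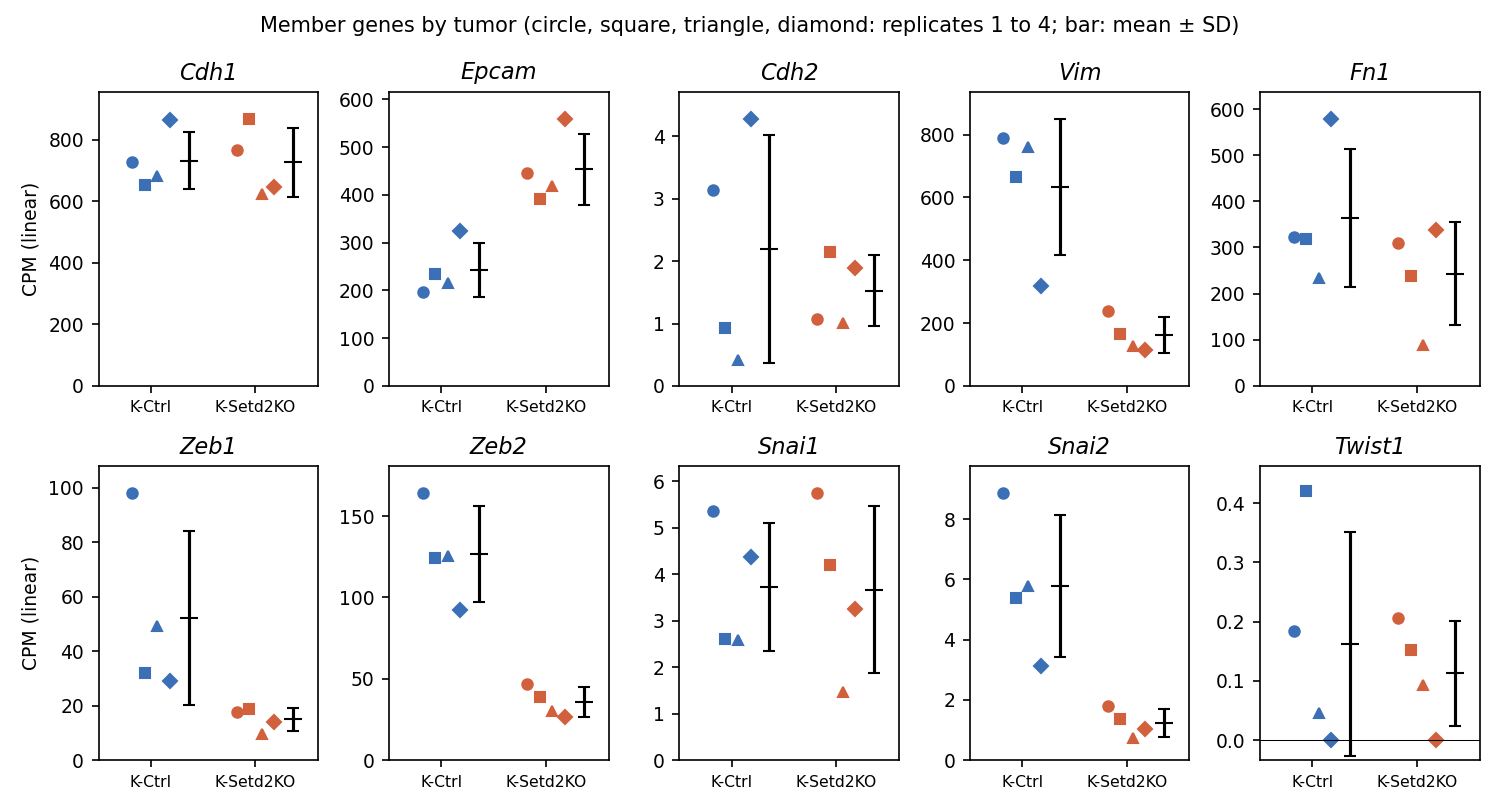
CPM of each member (linear axes from 0, except that the *Twist1* axis starts just below 0 to hold its error bar) in 4 *K-Ctrl* tumors (blue) and 4 *K-Setd2KO* tumors (red), with symbols for replicates 1 to 4 and bars for mean ± SD. The groups are apart for *Epcam*, *Vim*, *Zeb1*, *Zeb2* and *Snai2* and overlap for the other 5 genes.

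The promoters of the changed adhesion gene, of the changed filament gene and of the factor *Snai1*, which did not pass the test, are shown for the E-box CACCTG, the motif that ZEB and SNAIL factors bind, searched on both strands as CACCTG or CAGGTG. The sequences are from RefSeq on GRCm38.p6 and hold the 250 bases before the start of the gene, with the motif in capitals. Of the 10 members, 5 had an entry.
*Epcam*, chr17:87635729-87635978, plus strand: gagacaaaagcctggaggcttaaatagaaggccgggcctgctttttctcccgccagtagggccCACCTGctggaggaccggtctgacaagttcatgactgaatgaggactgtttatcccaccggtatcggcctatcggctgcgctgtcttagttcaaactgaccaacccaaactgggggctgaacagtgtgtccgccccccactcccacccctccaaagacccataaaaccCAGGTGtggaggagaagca
*Vim*, chr2:13574061-13574310, plus strand: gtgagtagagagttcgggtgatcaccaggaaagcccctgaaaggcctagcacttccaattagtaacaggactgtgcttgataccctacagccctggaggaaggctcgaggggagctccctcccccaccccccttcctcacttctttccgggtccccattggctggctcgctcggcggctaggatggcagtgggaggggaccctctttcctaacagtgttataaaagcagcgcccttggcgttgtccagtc
*Snai1*, chr2:167537945-167538194, plus strand: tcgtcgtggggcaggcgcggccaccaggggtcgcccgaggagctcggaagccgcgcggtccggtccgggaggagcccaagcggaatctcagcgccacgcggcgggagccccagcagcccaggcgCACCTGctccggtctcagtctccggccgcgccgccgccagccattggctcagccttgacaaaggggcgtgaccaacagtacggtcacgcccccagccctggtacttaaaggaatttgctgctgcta
The *Epcam* window holds 2 matches, which begin 187 and 19 bases before the start, and the *Snai1* window holds 1, which begins 126 bases before the start. None was found in the windows of *Vim*, *Zeb2* and *Twist1*, so 2 of the 8 windows of the 5 genes held a match, with 4 windows from *Zeb2*, against 17.2% of the 32851 RefSeq promoters searched in the same way. The RefSeq start of *Vim* lies inside the span that the count table gives the gene. A match is a description of letters, not of binding.

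*Epcam* (ENSMUSG00000045394.8, GRCm38 chromosome 17, 87635979 to 87651106, plus strand) encodes a homophilic adhesion glycoprotein of epithelial cells, and its promoter is the printed one with 2 E-box matches. It measured 195.7, 235, 215 and 324 CPM in *K-Ctrl* replicates 1 to 4 and 445, 391, 418 and 559 CPM in *K-Setd2KO* replicates 1 to 4. Every *K-Setd2KO* tumor was above every *K-Ctrl* tumor, with *K-Ctrl* replicate 4 the highest of its group. The means were 242 ± 56.6 CPM and 453 ± 73.9 CPM (SD of 4 tumors each), a 1.87-fold difference (log2 fold change 0.90 ± 0.19, adjusted p = 0.0177 by edgeR). The call was lost with sex as a term, where the log2 fold change was 0.88 (edgeR adjusted p = 0.0544), and without *K-Ctrl* replicate 3, where it was 0.85 (edgeR adjusted p = 0.0595).

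*Cdh1* (ENSMUSG00000000303.12, GRCm38 chromosome 8, 106603351 to 106670246, plus strand) encodes E-cadherin, the calcium-dependent adhesion molecule of adherens junctions. Its levels were 729, 652, 683 and 864 CPM in *K-Ctrl* replicates 1 to 4 and 766, 868, 625 and 646 CPM in *K-Setd2KO* replicates 1 to 4. The ranges overlapped almost entirely. The means of 732 ± 93.7 and 726 ± 113 CPM (SD of 4 tumors each) differed by a log2 fold change of -0.011 ± 0.16 (adjusted p = 0.970 by edgeR), and over 17 alternative settings the log2 fold change lay between -0.11 and 0.079. Within single tumors the log2 ratio of *Cdh1* to *Epcam* was 1.61 ± 0.218 in *K-Ctrl* against 0.68 ± 0.394 in *K-Setd2KO* (SD of 4 tumors each), with no overlap between the groups. The rise of *Epcam* is part of this ratio.

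Relative to the summed CPM of 11 alveolar type 2 markers, a ratio chosen after the values were seen, the log2 ratio of *Epcam* was -7.91 ± 0.100 in *K-Ctrl* against -7.21 ± 0.423 in *K-Setd2KO*, and that of *Cdh1* was -6.29 ± 0.171 and -6.53 ± 0.0900 (SD of 4 tumors each). The group means differed in opposite directions. The groups did not overlap, but the gap between the nearest tumors was only -7.78 to -7.72 for *Epcam* and -6.44 to -6.42 for *Cdh1*. The summed markers ranged from 47990 to 71010 CPM in *K-Ctrl* and from 57600 to 82690 CPM in *K-Setd2KO*. The sum holds *Sftpb* and *Lpcat1*, which were called higher, and *Napsa*, which was called lower, so both ratios also carry changes in the markers. *Cdh1* CPM itself had a log2 fold change of -0.011.

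*Vim* (ENSMUSG00000026728.9, GRCm38 chromosome 2, 13573927 to 13582826, plus strand) encodes vimentin, the intermediate filament of mesenchymal cells and leukocytes. It measured 789.8, 665, 762 and 317 CPM in *K-Ctrl* replicates 1 to 4 and 239.9, 165, 126 and 114 CPM in *K-Setd2KO* replicates 1 to 4. *K-Ctrl* replicate 4 lay nearest to the *K-Setd2KO* tumors, and the groups did not overlap. The mean was 633 ± 218 CPM in *K-Ctrl* against 161 ± 56.8 CPM in *K-Setd2KO* (SD of 4 tumors each), 3.92-fold lower (log2 fold change -1.97 ± 0.33, adjusted p = 0.0102 by edgeR). The call held in all 17 alternative settings, with log2 fold changes from -2.22 to -1.84.

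*Fn1* (ENSMUSG00000026193.15, GRCm38 chromosome 1, 71585520 to 71653200, minus strand, overlapping *Apol7d* on the other strand) encodes the matrix glycoprotein fibronectin. Its levels were 322, 318, 233 and 579 CPM in *K-Ctrl* replicates 1 to 4 and 309.8, 238, 88.3 and 338 CPM in *K-Setd2KO* replicates 1 to 4. The groups overlapped, with *K-Ctrl* replicate 4 far above and *K-Setd2KO* replicate 3 far below the rest. The means of 363 ± 150 and 243 ± 112 CPM (SD of 4 tumors each) gave a log2 fold change of -0.58 ± 0.41 (adjusted p = 0.388 by edgeR), which lay between -1.10 and -0.26 over 17 alternative settings and passed the test in none.

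*Cdh2* (ENSMUSG00000024304.14, GRCm38 chromosome 18, 16588877 to 16809246, minus strand, overlapping *Gm15485* on the other strand) encodes N-cadherin, which replaces E-cadherin in the classical cadherin switch. It was scarce, with 9 to 51 counts per tumor. The values were 3.14, 0.924, 0.416 and 4.28 CPM in *K-Ctrl* replicates 1 to 4 and 1.08, 2.14, 1.01 and 1.88 CPM in *K-Setd2KO* replicates 1 to 4. The *K-Ctrl* tumors spanned the whole range of the *K-Setd2KO* tumors, and the difference did not pass the test (log2 fold change -0.52 ± 0.69, adjusted p = 0.654 by edgeR).

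*Zeb2* (ENSMUSG00000026872.17, GRCm38 chromosome 2, 44983632 to 45117395, minus strand) encodes a zinc finger homeobox repressor and overlaps 1 gene on its own strand and 4 on the other, among them the antisense gene *Zeb2os*. It measured 164, 124, 125 and 92.5 CPM in *K-Ctrl* replicates 1 to 4 and 46.9, 38.9, 30.5 and 26.7 CPM in *K-Setd2KO* replicates 1 to 4. The lowest *K-Ctrl* tumor, replicate 4, was still well above the highest *K-Setd2KO* tumor. The mean was 3.54-fold lower in *K-Setd2KO*, at 35.7 ± 9.01 CPM against 126 ± 29.3 CPM (SD of 4 tumors each, log2 fold change -1.82 ± 0.22, adjusted p = 0.0056 by edgeR). All 17 alternative settings kept the call, with log2 fold changes from -1.98 to -1.62.

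*Zeb1* (ENSMUSG00000024238.13, GRCm38 chromosome 18, 5591860 to 5775467, plus strand), the paralog of *Zeb2* and a direct repressor of *Cdh1*, overlaps 1 gene on its own strand and 2 on the other. Its levels were 98.1, 32.2, 49.4 and 29.1 CPM in *K-Ctrl* replicates 1 to 4 and 17.5, 18.9, 9.69 and 13.9 CPM in *K-Setd2KO* replicates 1 to 4. *K-Ctrl* replicate 1 stood far above the rest of its group, and no *K-Ctrl* tumor fell within the *K-Setd2KO* range. The means were 52.2 ± 31.9 and 14.99 ± 4.12 CPM (SD of 4 tumors each), 3.48-fold lower in *K-Setd2KO* (log2 fold change -1.80 ± 0.40, adjusted p = 0.0238 by edgeR). Its call was lost in 5 of 17 alternative settings. With sex as a term the log2 fold change was -1.75 (edgeR adjusted p = 0.0931) and with no filter on low counts -1.79 (edgeR adjusted p = 0.0590). Without *K-Ctrl* replicate 3, *K-Setd2KO* replicate 3 or *K-Setd2KO* replicate 4 it was -1.83, -1.63 and -1.77 (edgeR adjusted p = 0.0582, 0.0659 and 0.0572).

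*Snai2* (ENSMUSG00000022676.6, GRCm38 chromosome 16, 14705852 to 14709395, plus strand) encodes the zinc finger repressor SLUG. It was low but apart between the groups, at 8.86, 5.38, 5.77 and 3.12 CPM in *K-Ctrl* replicates 1 to 4 and 1.80, 1.38, 0.738 and 1.03 CPM in *K-Setd2KO* replicates 1 to 4. These levels rest on 6 to 144 counts per tumor. The mean was 4.68-fold lower in *K-Setd2KO*, at 1.23 ± 0.457 CPM against 5.78 ± 2.36 CPM (SD of 4 tumors each, log2 fold change -2.19 ± 0.42, adjusted p = 0.0135 by edgeR), and the call held in all 16 alternative settings in which the gene was tested.

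*Snai1* (ENSMUSG00000042821.7, GRCm38 chromosome 2, 167538195 to 167542814, plus strand) encodes SNAIL, the family's founding repressor of E-cadherin. It measured 5.36, 2.61, 2.58 and 4.37 CPM in *K-Ctrl* replicates 1 to 4 and 5.75, 4.21, 1.48 and 3.25 CPM in *K-Setd2KO* replicates 1 to 4. The groups overlapped throughout, with a log2 fold change of -0.0079 ± 0.44 (adjusted p = 0.993 by edgeR) on 16 to 112 counts per tumor. *Twist1* (ENSMUSG00000035799.5, GRCm38 chromosome 12, 33957671 to 33959817, plus strand), a basic helix-loop-helix factor, had 3, 5, 1 and 0 counts in *K-Ctrl* replicates 1 to 4 and 4, 2, 1 and 0 counts in *K-Setd2KO* replicates 1 to 4. A limit of 3 counts was worth 0.138 to 0.513 CPM in these libraries, so *Twist1* was at the edge of detection in both groups and no fold is given.

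With all 70 assignments of 4 and 4 tumors enumerated, a two-sided exact permutation test gave p = 0.0286, the smallest it can give, for each of *Epcam*, *Vim*, *Zeb1*, *Zeb2* and *Snai2* (n = 4 each). Any gene whose groups do not overlap reaches that value, so it adds nothing to the account of overlap. The same exact test gave p = 0.886 for *Cdh1* and p = 0.343 for *Fn1* (n = 4 each). *K-Ctrl* replicate 4 was the lowest *K-Ctrl* tumor for *Vim*, *Zeb1*, *Zeb2* and *Snai2* and the highest for *Epcam*, *Cdh1*, *Fn1* and *Cdh2*.

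**Figure D2:**
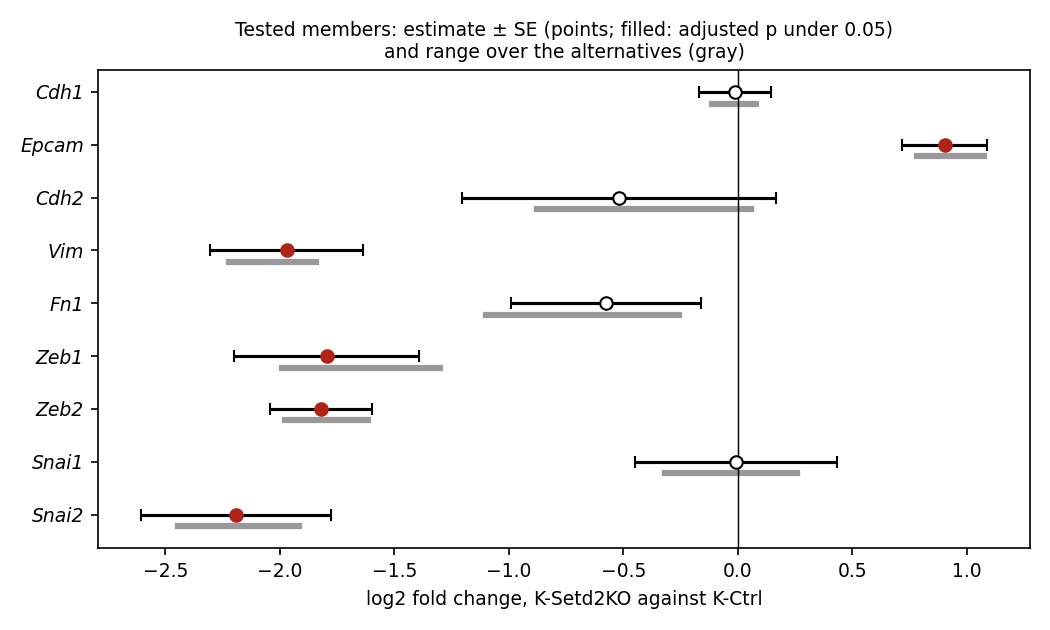
Log2 fold change of *K-Setd2KO* over *K-Ctrl* for the 9 members tested, with black bars for the standard error (edgeR), filled points for called genes and gray bars for the range over the alternative settings. *Epcam* lies at 0.90 and *Vim*, *Zeb1*, *Zeb2* and *Snai2* lie between -2.19 and -1.80, and *Cdh1* and *Snai1* lie near 0.

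As levels, CPM per kilobase of exon were compared between genes. In *K-Ctrl* the order was *Cdh1* at 160.1 ± 20.5, *Vim* at 133 ± 45.9, *Epcam* at 119 ± 27.8 and *Fn1* at 31.1 ± 12.8 CPM per kilobase (SD of 4 tumors each). The transcription factors followed at 6.34 for *Zeb2*, 5.16 for *Zeb1*, 2.85 for *Snai2* and 2.30 for *Snai1*, and *Cdh2* and *Twist1* came last at 0.272 and 0.101 CPM per kilobase. Neighbours in this order overlapped over the 4 tumors, except *Epcam* and *Fn1*, *Fn1* and *Zeb2*, and *Snai1* and *Cdh2*. In *K-Setd2KO* the order of means began with *Epcam* at 222 ± 36.2 and *Cdh1* at 159 ± 24.8, well ahead of *Vim* at 34.0 ± 11.97 and *Fn1* at 20.8 ± 9.56 CPM per kilobase (SD of 4 tumors each). *Vim* and *Fn1* overlapped there, and *Epcam* and *Cdh1* did not. *Snai1*, the only factor of the 4 tested whose level did not pass the test, had the highest mean of the factors in *K-Setd2KO* at 2.27 CPM per kilobase, overlapping *Zeb2* at 1.79, which in turn overlapped *Zeb1* at 1.48. *Snai2* at 0.608, *Cdh2* at 0.190 and *Twist1* at 0.0697 CPM per kilobase came last.

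Because sex and genotype partly coincide, log2 CPM was also compared within each sex, without a test, since 1 group of each comparison holds a single tumor. *Epcam* was higher in *K-Setd2KO* by 0.81 among males (3 *K-Ctrl* against 1 *K-Setd2KO*) and 0.97 among females (1 *K-Ctrl* against 3 *K-Setd2KO*). *Vim* differed by -2.19 and -2.01, *Zeb1* by -2.41 and -0.95, *Zeb2* by -2.02 and -1.76 and *Snai2* by -2.66 and -1.87 among males and females. The groups did not overlap for these 5 genes, so the same direction within both sexes was fixed in advance and does not speak to an effect of sex. *Fn1* differed by -1.99 among males, where the lone *K-Setd2KO* tumor was replicate 3, and by -0.12 among females, while *Cdh1*, *Cdh2* and *Snai1* differed in opposite directions.

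Other genes of these processes were described from 6 lists. Among 39 epithelial adhesion and polarity genes, 38 were tested, 14 rose and none fell (edgeR adjusted p under 0.05), for a median log2 fold change of 0.50. The 14 included the adhesion genes *Nectin4*, *Pvr* and *Dsg2*, the structural genes *Evpl* and *Krt18*, the protease inhibitors *Spint1* and *Spint2*, the sorting adaptor *Ap1m2*, the splicing regulators *Esrp1* and *Esrp2*, and the epithelial transcription factors *Grhl1*, *Elf3* and *Ehf*. *Dsg2*, a desmosomal cadherin, rose from 11.9 ± 6.54 to 76.7 ± 12.2 CPM (log2 fold change 2.69 ± 0.34, adjusted p = 0.0056 by edgeR). *Elf3* rose from 22.5 ± 5.05 to 57.3 ± 3.80 CPM (SD of 4 tumors each). The count of 14 was 7, 7 and 6 without *K-Ctrl* replicates 1, 2 and 3, and 8 and 9 without *K-Setd2KO* replicates 3 and 4. The catenins, which tie E-cadherin to actin, had log2 fold changes of 0.023 for *Ctnna1*, 0.11 for *Ctnnb1*, 0.16 for *Ctnnd1* and -0.0026 for *Jup*, none past the test, and were chosen after their values were seen.

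Of 19 other EMT transcription factors, 14 were tested, of which 3 fell and none rose. *Tcf4*, a basic helix-loop-helix factor, fell from 126 ± 22.3 to 66.8 ± 15.4 CPM, the homeobox gene *Prrx1* from 11.9 ± 3.08 to 5.52 ± 1.66 CPM, and the T-box gene *Tbx3* from 49.3 ± 42.1 to 10.3 ± 3.03 CPM (SD of 4 tumors each). The median log2 fold change of the list was 0.094, and it was -0.59 with no filter on low counts and -0.052 with at least 10 counts in every tumor, so its sign rests on the filter. *Snai3*, *Twist2*, *Foxc2* and *Gsc* were among those not tested. The 3 calls became 1 without *K-Ctrl* replicate 1 or 3 or *K-Setd2KO* replicate 1 or 3, and with the replicate block.

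Of 29 mesenchymal effector genes, all tested, 6 fell and none rose, for a median log2 fold change of -0.43. The 6 were *Cdh11*, *Cdh5*, *Postn*, *Mmp2*, *Axl* and *Lgals1*, of which *Cdh5* is the cadherin of endothelial cells. *Axl*, a receptor tyrosine kinase, fell from 187 ± 56.3 to 59.0 ± 11.3 CPM (log2 fold change -1.67 ± 0.23, adjusted p = 0.00643 by edgeR), *Cdh11*, a mesenchymal cadherin, from 61.2 ± 7.08 to 23.1 ± 7.38 CPM, and *Lgals1*, which encodes galectin-1, from 50.3 ± 12.3 to 21.9 ± 6.57 CPM (SD of 4 tumors each). The count was 3 without *K-Ctrl* replicate 1 or *K-Setd2KO* replicate 3 or 4, and with no filter, and 10 with DESeq2.

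Transforming growth factor beta is the classical inducer of EMT. Of 25 ligands, receptors and mediators tested, 5 fell and 1 rose (median log2 fold change -0.40). The ligands *Tgfb2* and *Tgfb3* fell from 24.7 ± 3.47 to 7.57 ± 2.72 CPM and from 26.0 ± 5.53 to 13.0 ± 3.24 CPM, and *Ltbp4*, which holds latent ligand in the matrix, from 45.1 ± 26.6 to 8.65 ± 2.60 CPM (SD of 4 tumors each). *Acvrl1*, a receptor prominent in endothelium, and *Ltbp1* also fell. *Smurf1*, a ubiquitin ligase that turns over components of the pathway, rose from 95.2 ± 19.8 to 199.8 ± 65.3 CPM (SD of 4 tumors each). The count of 5 was 2 without *K-Ctrl* replicate 1 or *K-Setd2KO* replicate 3 and 3 without *K-Ctrl* replicate 3 or *K-Setd2KO* replicate 4, and the *Smurf1* call was lost without *K-Setd2KO* replicate 1 and without *K-Ctrl* replicate 1, 2 or 3. With the sex term 3 fell and none rose, and with DESeq2 9 fell and 2 rose.

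Of 13 fibronectin receptor genes, all tested, 6 fell and 1 rose, for a median log2 fold change of -1.04. *Itgb5* fell from 57.9 ± 9.28 to 25.4 ± 4.37 CPM, *Itgb6*, an integrin of epithelial cells, from 69.0 ± 18.3 to 29.0 ± 7.11 CPM, and *Itgb7*, an integrin of leukocytes, from 12.1 ± 5.08 to 2.96 ± 1.26 CPM (SD of 4 tumors each). *Itga5*, the classical fibronectin receptor subunit, *Itga4* and *Itga8* also fell. *Sdc1*, an epithelial heparan sulfate proteoglycan, rose from 364 ± 87.8 to 711 ± 83.3 CPM (log2 fold change 0.97 ± 0.18, adjusted p = 0.0134 by edgeR). The count of 6 was 3 without *K-Ctrl* replicate 3 or *K-Setd2KO* replicate 3. Of 10 intermediate filament and linker genes, 9 were tested, 3 fell and none rose (median log2 fold change -0.28). *Nes*, which encodes the filament protein nestin, fell from 96.4 ± 52.5 to 25.2 ± 8.17 CPM, the nuclear lamin gene *Lmna* from 162 ± 18.5 to 106 ± 20.96 CPM, and the keratin gene *Krt80* from 55.0 ± 44.3 to 15.4 ± 2.51 CPM (SD of 4 tumors each). These 3 calls became 1 without *K-Ctrl* replicate 1 or *K-Setd2KO* replicate 1 and 0 without *K-Ctrl* replicate 3 or *K-Setd2KO* replicate 3 or 4, and they were 0 with the sex term and 1 with the replicate block or no filter.

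**Figure D3:**
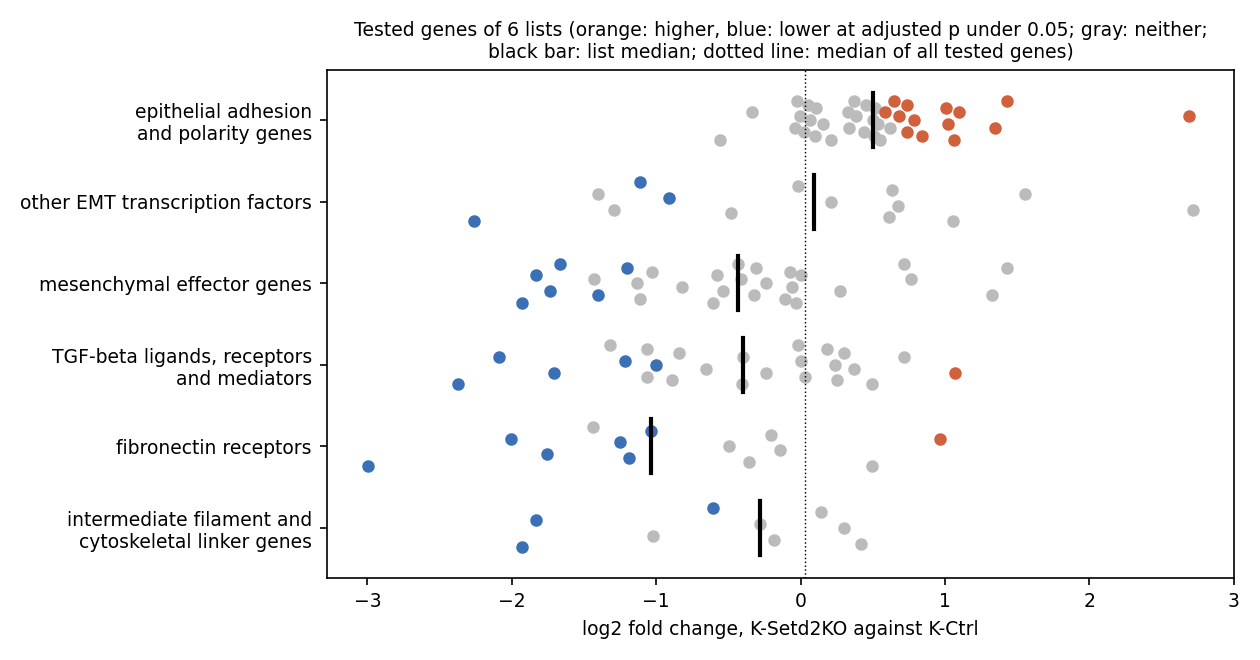
Log2 fold change of *K-Setd2KO* over *K-Ctrl* for each tested gene of the 6 lists (edgeR), with called genes marked and the median of each list. The epithelial list has 14 called genes, all higher, and a median of 0.50, and the fibronectin receptor list has the lowest median, -1.04.

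Markers of several cell types, most of them not epithelial, had lower levels in *K-Setd2KO*, the direction of *Vim*, *Zeb1*, *Zeb2* and *Snai2*. Of 10 pan-leukocyte markers 9 fell, for a median log2 fold change of -1.91, and their summed level ran from 715 to 1481 CPM in *K-Ctrl* and from 248 to 342 CPM in *K-Setd2KO*, without overlap. Of 10 endothelial markers 3 fell (median -1.42), with sums of 727 to 2814 CPM against 338 to 706 CPM, without overlap. Of 10 fibroblast markers 3 fell (median -1.17), with sums of 629 to 1208 CPM against 148 to 633 CPM, which overlapped. Of 10 macrophage markers 5 fell (median -1.63), with sums of 2183 to 6419 CPM against 461 to 2655 CPM. Of 7 mesothelial markers 5 fell (median -2.94), with sums of 38.8 to 224 CPM against 6.20 to 32.5 CPM, without overlap. Of 9 smooth muscle and pericyte markers none fell and *Rgs5* rose, with sums of 118 to 174 CPM against 102 to 180.1 CPM. The values of *Rgs5* overlapped between the groups, and its list had 0 higher calls without *K-Ctrl* replicate 1 or 3 or *K-Setd2KO* replicate 1, 2 or 3, with the sex term, with the replicate block and with no filter. Of the most abundant markers, *Laptm5* and *Itgb2* of leukocytes fell to 69.9 and 60.1 CPM from 243 and 246 CPM, *Mrc1* of macrophages to 82.8 from 386 CPM and *Ptprb* of endothelium to 91.3 from 384 CPM. *Pecam1* (284 and 108 CPM in *K-Ctrl* and *K-Setd2KO*), *Chil3* (2500 and 985 CPM) and the fibroblast collagens *Col3a1* (275 and 102 CPM) and *Col1a2* (217 and 116 CPM) did not pass the test. None of these markers was at 0 in all tumors. The counts for endothelial and fibroblast markers both became 0 without *K-Ctrl* replicate 1 or *K-Setd2KO* replicate 4, and the endothelial count also without *K-Ctrl* replicate 3 or *K-Setd2KO* replicate 2 or 3, while that of fibroblast markers was 1 without *K-Ctrl* replicate 3. The mesothelial count was 1 without *K-Ctrl* replicate 1, 2 or 3 or *K-Setd2KO* replicate 3 and 2 without *K-Setd2KO* replicate 4. The pan-leukocyte count stayed at 8 or 9 whichever tumor was left out. With the sex term the lower counts were 10 for pan-leukocyte, 0 for endothelial, 2 for fibroblast and 2 for mesothelial markers, and with no filter they were 9, 0, 1 and 2. The mesothelial count was also 2 with limma voom and with the replicate block, where the endothelial counts were 1 and 5. DESeq2 called more, with 9 pan-leukocyte, 7 endothelial, 4 fibroblast, 7 macrophage, 7 mesothelial and 3 smooth muscle and pericyte markers lower.

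The remaining marker lists were described for T cells (1 of 8 fell, summed level 48.5 to 123 CPM in *K-Ctrl* and 8.21 to 37.1 CPM in *K-Setd2KO*), B cells (1 of 5, 32.8 to 80.7 and 18.0 to 28.4 CPM), neutrophils (1 of 7, 24.1 to 38.7 and 15.1 to 63.7 CPM) and cardiac muscle (0 of 4, 82.8 to 259 and 44.0 to 227 CPM, with *Sln* at 0 in all tumors). Their median log2 fold changes were -1.78 for T cell, -2.14 for B cell, 0.51 for neutrophil and -0.15 for cardiac muscle markers. In the neutrophil list 4 genes were positive and 3 negative, and its median was -0.69 with the sex term. Of the lung epithelial lists, alveolar type 2 markers had 2 genes higher and 1 lower of 11, and alveolar type 1, club and ciliated markers had 1 of 8, 0 of 5 and 1 of 8 lower and none higher, and these 3 lists had negative median log2 fold changes too, at -0.91, -1.23 and -0.98, while that of alveolar type 2 markers was 0.23, 0.012 with the sex term and -0.058 without *K-Setd2KO* replicate 2. The 2 higher calls of alveolar type 2 markers became 1 without *K-Ctrl* replicate 1, 2 or 3 or *K-Setd2KO* replicate 3, or with the replicate block, and the lower call was lost without any 1 *K-Ctrl* tumor, without *K-Setd2KO* replicate 1, and with the sex term, the replicate block or no filter. When 1 tumor was left out, the lower counts ran from 1 to 3 for alveolar type 1, from 1 to 3 for ciliated, from 0 to 2 for club and from 0 to 2 for neutrophil markers, and the B cell count became 2 without *K-Ctrl* replicate 2 or 4 or *K-Setd2KO* replicate 1, 2 or 4. The T cell and B cell counts were 4 and 3 with the sex term, and with DESeq2 the lower counts were 5 for alveolar type 1, 3 for ciliated, 3 for B cell, 2 for T cell and 2 for neutrophil markers. The part of these cells in the members' differences was not tested.

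**Figure D4:**
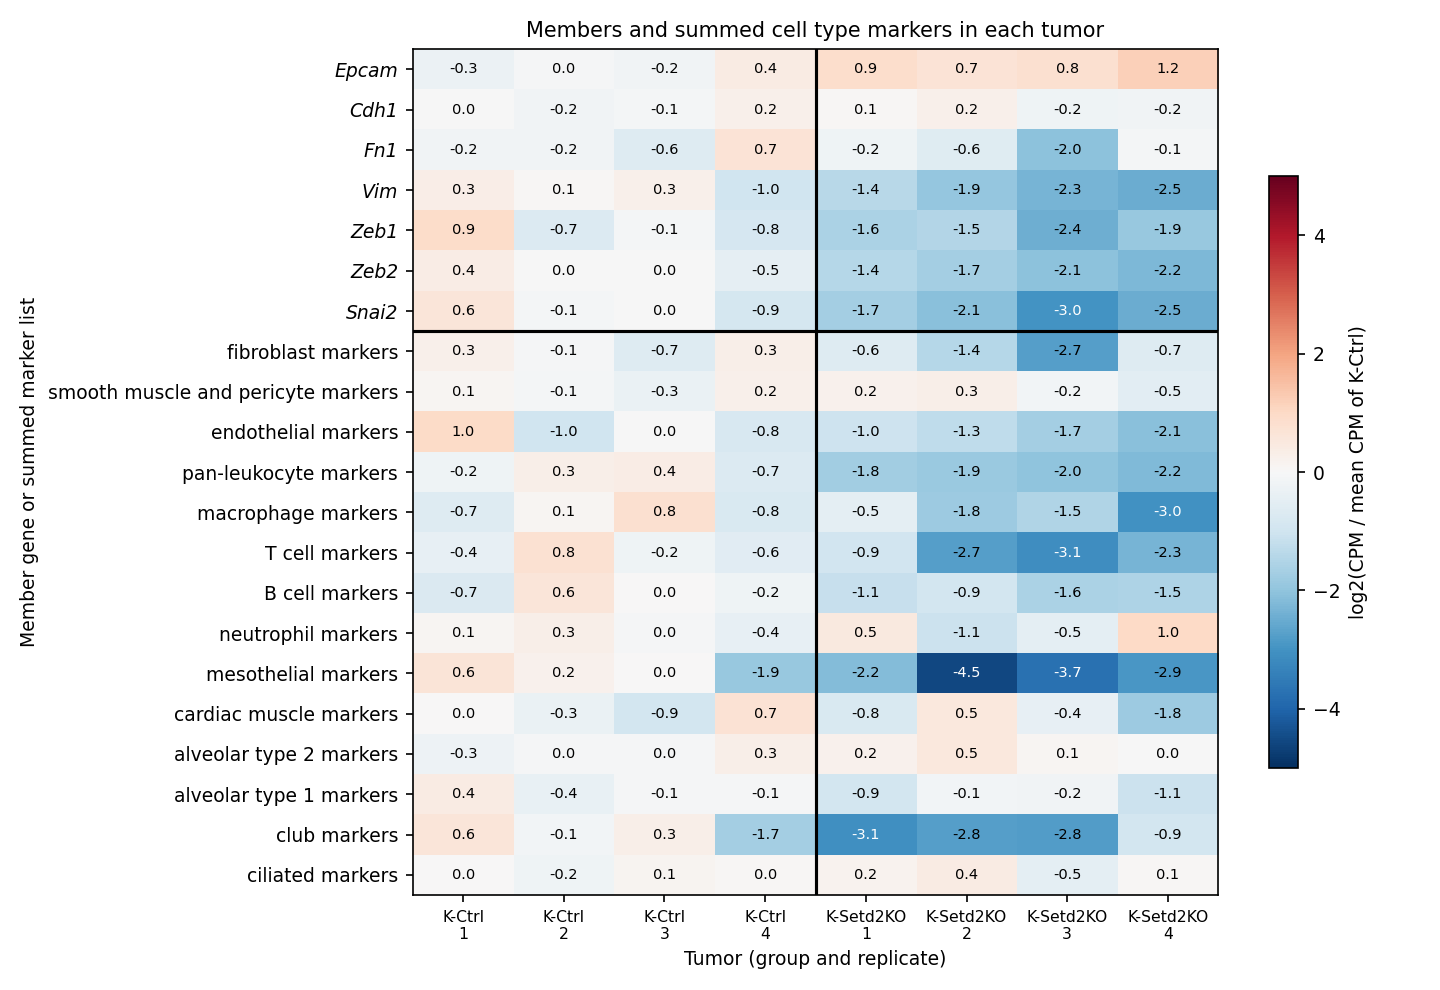
Log2 ratio of CPM to the mean CPM of *K-Ctrl* for 7 members (top) and for the summed CPM of each marker list (bottom) in each of the 8 tumors, red above and blue below the *K-Ctrl* mean. The pan-leukocyte, macrophage, T cell, B cell, endothelial, fibroblast, mesothelial, alveolar type 1 and club rows are below the *K-Ctrl* mean in all *K-Setd2KO* tumors along with *Vim*, *Zeb1*, *Zeb2* and *Snai2*, and the *Epcam* row is red in all 4.

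Ratios within a tumor, which do not depend on library scaling, set the members beside these markers. The log2 ratio of *Vim* to the summed pan-leukocyte markers was -0.89 ± 0.390 in *K-Ctrl* against -0.94 ± 0.305 in *K-Setd2KO* (SD of 4 tumors each), a difference of -0.049. That of *Zeb2* differed by 0.071 and that of *Zeb1* by 0.23, with overlap in each case. Relative to endothelial markers the log2 ratios differed by -0.64 for *Vim*, -0.52 for *Zeb2* and -0.36 for *Zeb1*, and relative to fibroblast markers by -0.63, -0.51 and -0.35, again with overlap. For these 3 genes the groups overlapped in all 9 ratios. Overlap of a ratio also depends on the spread of the marker sums, such as 727 to 2814 CPM for endothelial markers in *K-Ctrl*. What part these cells have in the falls was not tested. The log2 ratio of *Fn1* to fibroblast markers was -1.49 ± 0.339 in *K-Ctrl* against -0.82 ± 0.179 in *K-Setd2KO* (SD of 4 tumors each), with no overlap but a gap of only -1.06 to -1.03 between the nearest tumors, and it was higher by 0.65 relative to endothelial and by 1.24 relative to pan-leukocyte markers, both with overlap. Relative to *Epcam*, both mesenchymal genes were lower in every *K-Setd2KO* tumor than in every *K-Ctrl* tumor, with differences of -2.87 for *Vim* and -1.58 for *Fn1* in the log2 ratio. *Epcam* itself was higher in every *K-Setd2KO* tumor, so these ratios hold its rise as well. The separation for *Vim* followed from the CPM of *Vim* and *Epcam*. The CPM of *Fn1* overlapped between the groups and did not pass the test.

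**Figure D5:**
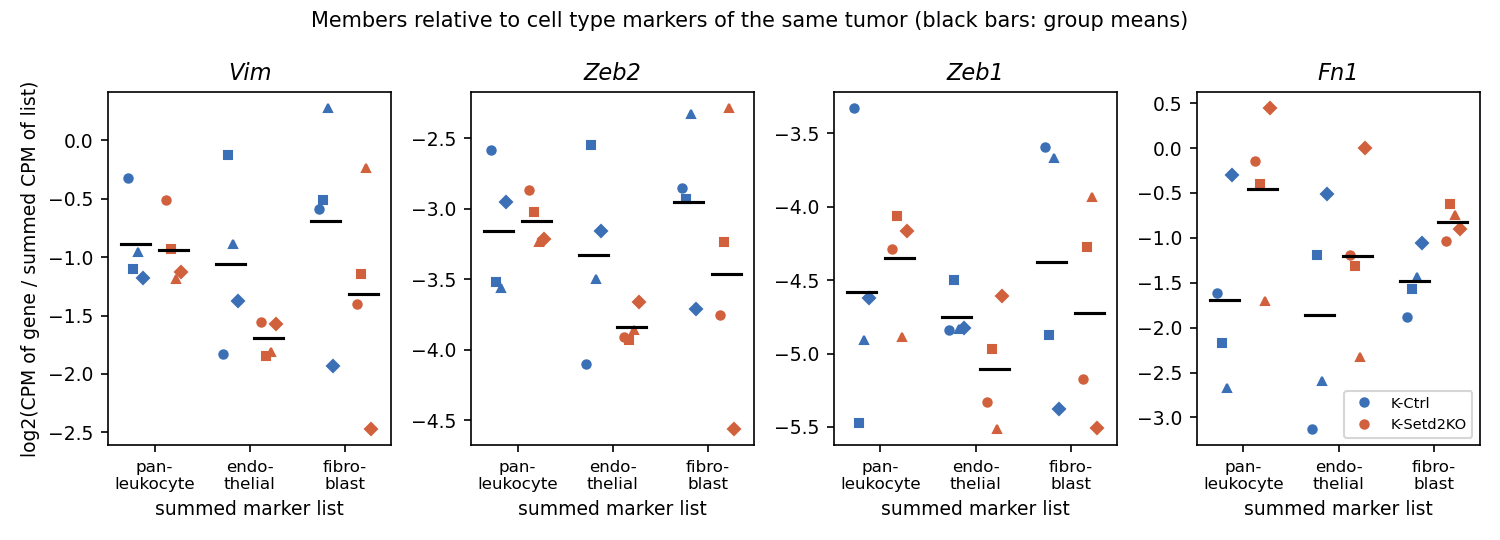
Log2 ratio of the CPM of *Vim*, *Zeb2*, *Zeb1* and *Fn1* to the summed CPM of pan-leukocyte, endothelial and fibroblast markers in each tumor (blue *K-Ctrl*, red *K-Setd2KO*, symbols for replicates 1 to 4, black bars for group means). The groups overlap in all ratios but that of *Fn1* to fibroblast markers.

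Over the 8 tumors, the genes with the most similar pattern were found by Pearson's r of log2 CPM among 13353 protein-coding genes, as a description without a test. For *Vim* they were *Gfod1* (r = 0.995), *Synj1* (0.994), *Clec2d* (0.993), *Inpp5d* (0.990) and *Stk3* (0.984). For *Zeb1* they were *Tspan18* (0.997), *Ppp1r14a* (0.993), *Hsd11b1* (0.993), *Rasgrp2* (0.992) and *Nox4* (0.991). For *Cdh1* they were *Dhx38* (0.968), *Bcor* (0.960), *Tesk1* (0.949), *Nbea* (0.947) and *Cxcl17* (0.931). The points share libraries and depth.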

How the data were processed

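Whole lung tumors were profiled by poly(A) RNA-seq with a strand-aware kit. The authors deposited raw counts per gene, with no normalization, in 1 table for all 8 tumors on GRCm38. The submitters' processing notes name STAR 2.5.2b, featureCounts 1.5.0-p1 and GRCm38.p4, with no role or order. The annotation release and the strand setting are not given in the sources used here, so reads of overlapping genes on opposite strands may not be separated. Symbols came from GENCODE M21, which held 48349 of 48709 identifiers (99.26%).

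Counts were filtered with filterByExpr, which left 14929 genes, scaled by TMM and tested for genotype alone with the robust quasi-likelihood test of edgeR 4.0.16 in R 4.3.3, with Benjamini-Hochberg adjustment over all genes tested and a threshold of 0.05. CPM values are counts scaled by the TMM-adjusted library size. Correlations used log2 CPM with a prior count of 2. The standard error is the absolute log2 fold change over the square root of F. The script was tested on simulated data. Because total counts ranged from 5806599 to 21290402, genes of few counts, such as *Cdh2*, *Snai1* and *Twist1*, are least precise, and floors of 3 counts cover counting error only. No 2 tumors of a group agreed within sampling noise.

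Alternatives were DESeq2 1.42.0 (the tool of the study), limma voom 3.58.1, other scaling factors, other filters, sex or replicate number as a term, removal of an exon-length trend, and leaving out each tumor. The members and lists were chosen with earlier results of these data known. Besides the 10 members, the genes named are the 3 with the smallest p in each direction among called genes of each pathway list, the 2 most abundant of the pan-leukocyte, endothelial, fibroblast and macrophage markers, the 5 most correlated with each of *Cdh1*, *Vim* and *Zeb1*, and others chosen after their values were seen. The values of some genes that the rule or the lists hold are not reported here.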

Additional observations from a re-analysis of the deposited data

Results flagged for a closer look

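Among 50 groups of 4 values checked for a single tumor far from the other 3, 2 were found, and chance gives about 2.5. The log2 ratio of *Zeb1* to summed endothelial markers was -4.50 in *K-Ctrl* replicate 2, against -4.84 to -4.82 in the other *K-Ctrl* tumors, which lay very close together. The log2 ratio of *Fn1* to *Epcam* was -2.24 in *K-Setd2KO* replicate 3, against -0.73 to -0.52 in the other *K-Setd2KO* tumors.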

How the results depend on the processing

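*Vim*, *Zeb2* and *Snai2* kept their calls in all alternatives that tested them, while *Epcam* and *Zeb1* lost theirs in those given above. Over all genes, DESeq2 called 1327 higher and 1867 lower, against 742 and 1155 in edgeR, a sex term left 453 higher and the replicate block 403 higher. Leaving out 1 tumor gave 224 to 856 higher and 539 to 1284 lower, and for members 0 to 1 higher and 3 to 4 lower. No member was called higher (0) with a sex term. Of the list genes, 16 were higher and 23 lower. The lower count was 35 with DESeq2, 15 with no filter and 15 with a sex term, and leaving out 1 tumor gave 7 to 22 higher and 9 to 19 lower. The cause of these shifts was not tested, and leaving out a tumor also lowers the number of tumors.

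The log2 fold changes of 3 members that were not called turned sign. With limma voom *Cdh2*, at -0.52 in edgeR, was at 0.058 and *Snai1* at 0.038, with no filter *Snai1* was at 0.0067, and with the exon-length trend removed *Cdh1* was at 0.0027. Leaving out 1 tumor gave -0.11 to 0.079 for *Cdh1*, -0.88 to 0.024 for *Cdh2* and -0.32 to 0.26 for *Snai1*.

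Replicate numbers did not pair the tumors, since same-numbered tumors deviated with correlations of -0.0742, -0.0299, 0.191 and -0.0232, and 1 of 4 numbers matched its own best. With the replicate block the log2 fold changes were 0.92 for *Epcam*, -1.95 for *Vim*, -1.68 for *Zeb1*, -1.83 for *Zeb2* and -2.22 for *Snai2*, and no call of a member changed.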
